A study of Homo sapiens with 4 samples.

Results

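The LIM homeobox genes encode transcription factors that join a DNA-binding homeodomain to a pair of LIM domains, zinc-binding modules through which the proteins meet cofactors. Members were the rows of the CHD5 and H3K27me3 region lists within 20 kb of 10 gene spans, LHX1, LHX2, LHX3, LHX4, LHX5, LHX6, LHX8, LHX9, LMX1A and LMX1B, given to the nearest kb on hg19. They came to 15 of 32543 CHD5 peaks and 442 of 257073 H3K27me3 regions. ISL1 and ISL2, which belong to the same family, are not analysed here.

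The 4 chromatin immunoprecipitation libraries come from SH-SY5Y, a human neuroblastoma line, kept for 8 days in 10 uM retinoic acid, an agent that drives these cells towards a neuron-like state. FBio-CHD5, a tagged form of the nucleosome remodeller CHD5 expressed in these cells, was captured on streptavidin beads, so the profile is that of an introduced protein. An antibody against H3K27me3 was applied to chromatin of the same FBio-CHD5 cells, which also gave the input DNA, whereas the control pull-down used cells with the construct Fbio-Ctrl. All 4 groups had the retinoic acid treatment and 1 library each. Regions called in the control pull-down and in input DNA were not used here. The region lists carry no read counts, so depth is unknown, and with 1 library per group no value has a replicate error and no test between groups was possible. The score of a region is the value the authors' peak caller gave it. It starts at 50 in both lists, its scale is not stated, and it was used only within its own list.

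H3K27me3 is the mark that Polycomb repressive complex 2 sets on histone H3, and it typically covers developmental regulator genes in cells where these are silent. LIM homeobox genes are known targets of this system in many cell types, and in the developing nervous system each is active in a restricted set of neurons and progenitors. CHD5 is a chromodomain helicase of the NuRD type expressed in neurons, and the study's title gives it a part in gene expression and in Polycomb repression. The question put to these loci was where each of the profiles lay, and where they met.

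H3K27me3 was listed at 9 of the 10 loci and CHD5 at 7. At 6 loci both were listed, LHX1, LHX2, LHX4, LHX6, LHX9 and LMX1B. At LHX3, LHX5 and LMX1A H3K27me3 stood without CHD5, and at LHX8 CHD5 stood without H3K27me3. The genome was cut into 47221 windows of 65501 bp, the median width of the 10 loci, for comparison. Of these windows 31.5% held an H3K27me3 region, 37.4% a CHD5 peak and 6.73% both. The windows are drawn from the whole chromosome, stretches without genes or without mapped sequence included, and the loci themselves ran from 48.001 to 195.001 kb. The shares therefore describe the background and do not test the loci. On chromosome 9, which holds LHX2, LHX3, LHX6 and LMX1B, 35.5% of windows held CHD5 and 30.8% held H3K27me3. On chromosome 1, which holds LHX4, LHX8, LHX9 and LMX1A, 47.6% held CHD5 and 23.9% held H3K27me3.

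**Figure D1:**
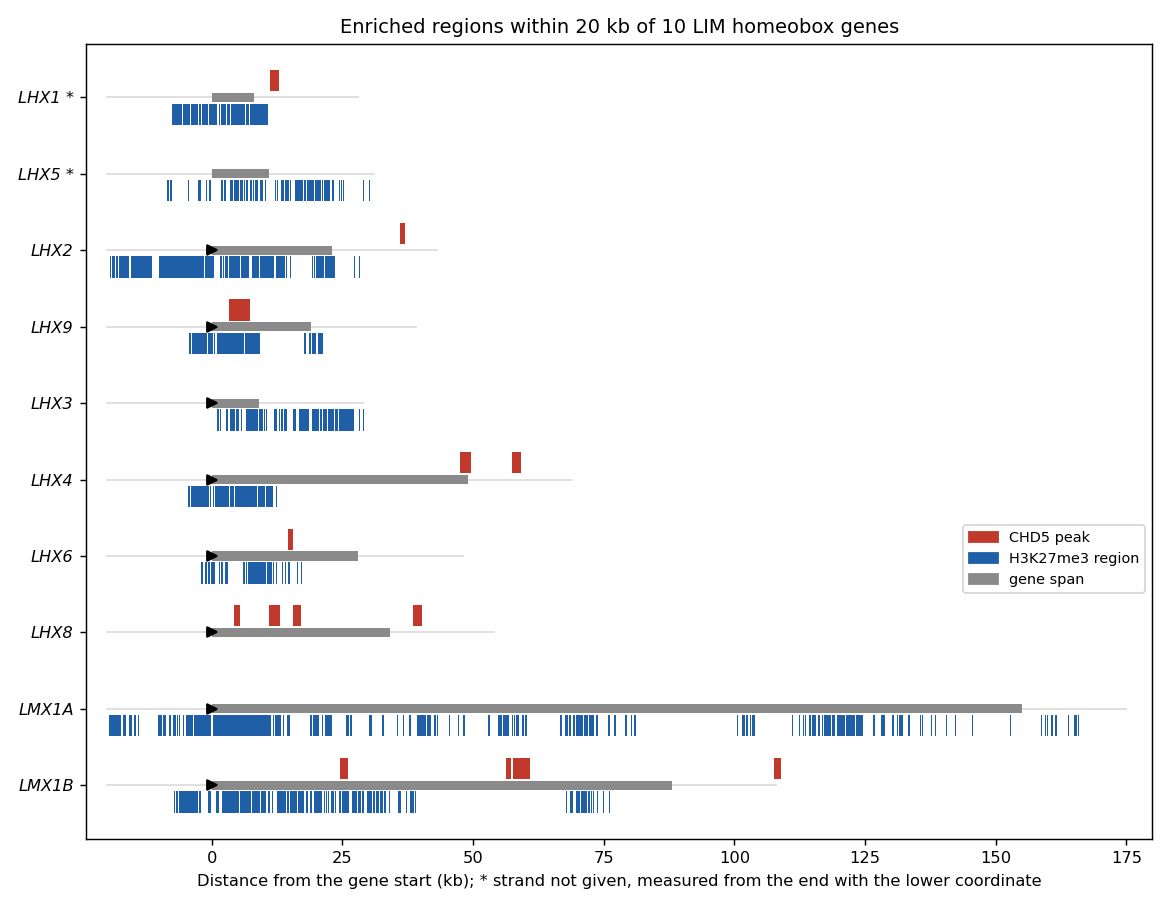
Positions of CHD5 peaks (red, above each line) and H3K27me3 regions (blue, below) around the 10 genes, as distance in kb from the gene start in the direction of transcription. Grey bars are gene spans and arrowheads mark starts; for LHX1 and LHX5 no strand was given and distance runs from the end with the lower coordinate. Blue blocks stand over the start or beside it in every gene but LHX8, and red blocks lie mostly downstream.

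The same 9 loci each held a domain of at least 5 kb, where a domain is a run of H3K27me3 regions joined across gaps of up to 3 kb. Of the genome windows 14.8% met such a domain. H3K27me3 covered 14.1% to 50.3% of these 9 loci, with a median of 32.0%. The lowest of these shares, at LHX6, exceeded the share in 93.3% of the genome windows, and the highest, at LHX2, exceeded it in 99.3%. In total H3K27me3 covered 220.654 kb of the 824.01 kb in the 10 loci and CHD5 covered 23.691 kb. These shares are 26.8% for H3K27me3 and 2.88% for CHD5, where the mean genome window had 2.82% and 2.09%. The loci thus lay well above the mean window in H3K27me3 coverage and near it in CHD5 coverage, a difference that was not tested.

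Pooled over the loci, the H3K27me3 regions were wider and higher in score than the list at large, but this varied by gene. Their median width was 347.5 bp and their median score 132, against 238 bp and 84.6 in the whole list, and 302 of the 442 scored above that median. By locus the median score ran from 84.5 at LHX5, level with the list, through 99.04 at LMX1A and 100.4 at LHX6, to 455 at LHX4. The median width ran from 240 bp at LHX5 to 679 bp at LHX9. The highest score at a locus, which depends on how many regions it has, lay between 746 at LHX3 and 3100. LHX4, LHX9 and LMX1A had a region at a score of 3100, a value reached or passed by 334 regions in the list. Score rose with width across the regions of the list (Spearman rho 0.853, n = 257073 regions of 1 library), so these are not separate measures.

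**Figure D2:**
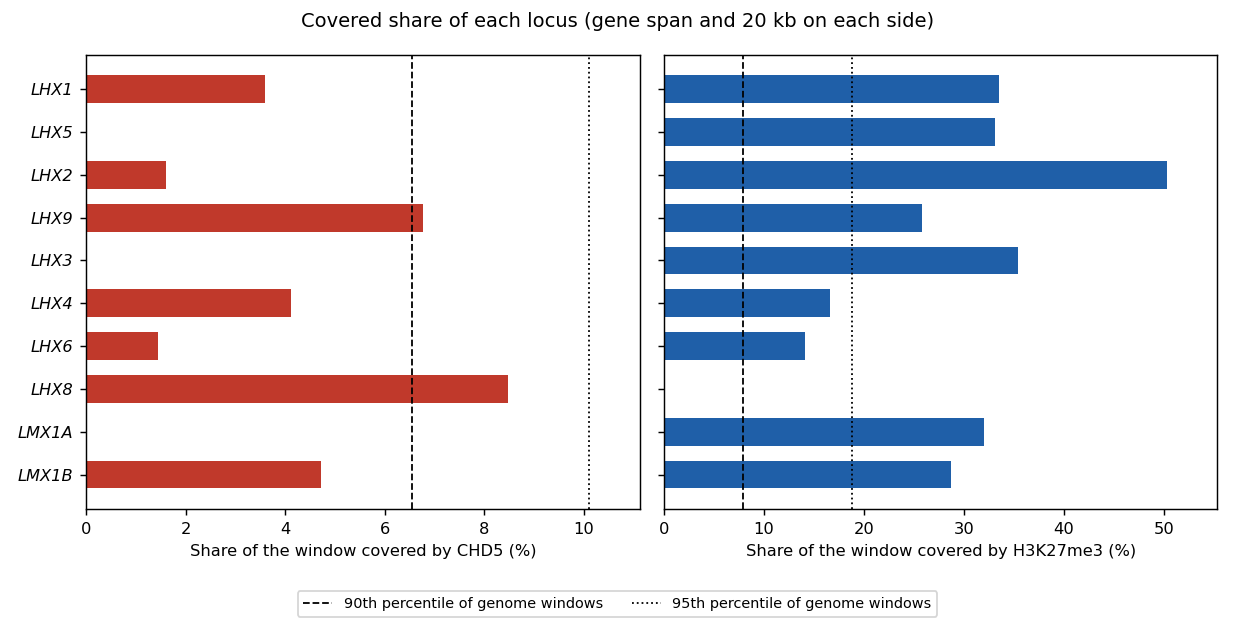
Share of each locus, gene span and 20 kb on each side, covered by CHD5 peaks (left, red) and H3K27me3 regions (right, blue), in percent. Dashed and dotted lines mark the 90th and 95th percentiles of the genome windows, which are 6.55% and 10.1% for CHD5 and 7.95% and 18.8% for H3K27me3; LHX8 and LHX9 pass the dashed line for CHD5, and the 9 loci with H3K27me3 all pass it for that mark.

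In most of the genes the mark was denser in the gene span than in its flanks. H3K27me3 covered 84.2% of the LHX1 span and 23.3% of its flanks, and 29.0% of the LHX6 span and 3.69% of its flanks. The span share was the higher in 8 of the 9 loci. LMX1A was the exception, with 31.5% in its span and 34.0% in its flanks.

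The gene starts themselves lay in or beside the mark. At these 9 loci an H3K27me3 region was listed 0 to 0.954 kb from the start, and the ends of the spans are known only to the nearest kb. For LHX1 and LHX5, whose strand was not given, the ends of the span were both taken, and the farther of them counted. Within 2 kb of the start the mark covered 89.7% at LMX1A, 82.6% at LHX9, 77.0% at LHX4, 63.9% at LHX2, 57.1% at LHX6, 32.0% at LMX1B and 18.1% at LHX3. No CHD5 peak lay within 2 kb of any of these starts, which are ends of the spans. Further starts are listed downstream for LHX3, LHX6, LHX8, LHX9 and LMX1A, and distances to those were not taken on hg19. At LHX8 and LHX9 they lie on the side of the CHD5 peaks. On GRCh38.p14 the listed promoters begin at 75128184 and 75134138 for LHX8, and at 197912214 and 197915824 for LHX9. CHD5 peaks lay 4.169 to 5.393 kb from the LHX8 span start and 3.248 to 7.237 kb from that of LHX9. By that spacing a CHD5 peak would stand within 2 kb of the downstream start of both genes. Within 5 kb of a span's start, or of either end where the strand was not given, CHD5 was listed at 3 loci, LHX1, LHX8 and LHX9.

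Averaged over the 7 marked genes with a known strand, coverage showed a dip near the start and a broad maximum inside the gene. The starts were span ends given to the nearest kb, so the dip is placed only to about 1 kb. Mean coverage by H3K27me3 was 67.2% in the last kb before the start, 44.2% in the first kb after it and 94.6% in the bin from 8 to 9 kb downstream, which was the highest of the bins. Single genes ran from 4.6% at LHX3 to 73.4% at LMX1A in the first kb, and from 84.0% at LHX4 to 99.6% at LHX9 in that later bin. Since that bin was picked as the highest, the first kb had to lie below it on average. The first kb was also lower than the third kb in 6 of 7 genes, LHX6 being the exception, and lower than the kb before the start in 5, where LHX3 and LHX6 were the exceptions. In single genes a lower bin could lie elsewhere near the start. LMX1B had 0% from 2 to 1 kb before it, and LHX6 0% from 4 to 6 kb after it. LHX2 had 29.6% from 1 to 2 kb after it, against 38.9% in the first kb. At LHX3 the mark began only after the start of the span, with 0% in each bin of the 5 kb before it. Further starts of LHX3 are listed downstream, on the side where the mark lies, and were not aligned. These are 7 loci of 1 library, and the mean has no replicate error.

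**Figure D3:**
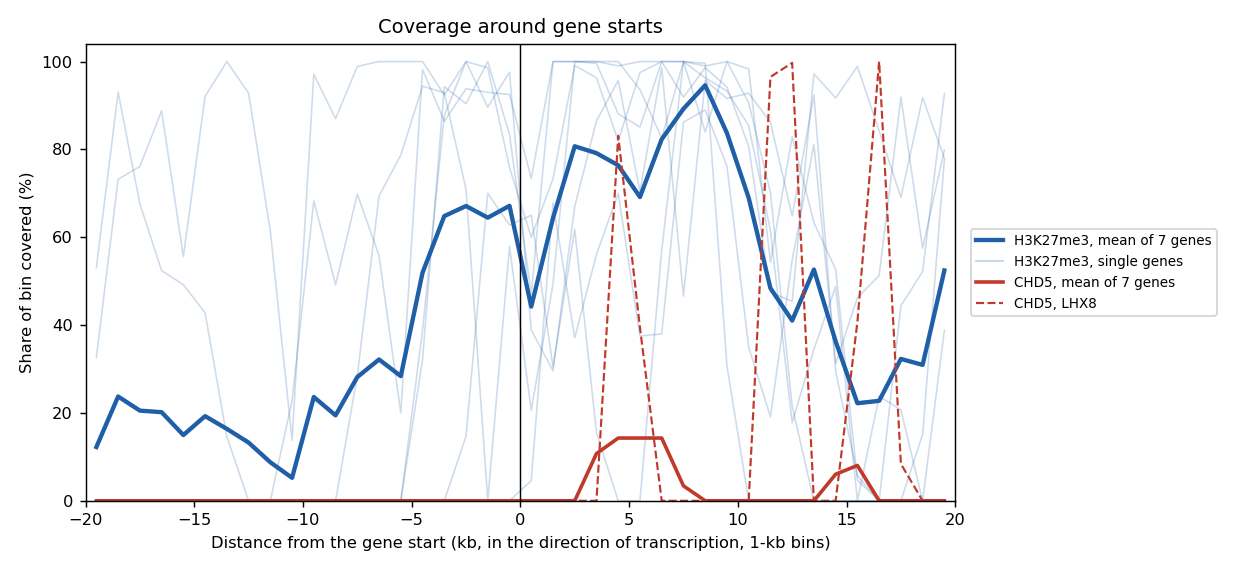
Share of each 1-kb bin covered, in percent, against distance from the gene start in kb. The thick blue line is the H3K27me3 mean of LHX2, LHX3, LHX4, LHX6, LHX9, LMX1A and LMX1B with single genes in pale blue, the red line is the CHD5 mean of the same genes and the dashed red line is CHD5 at LHX8; the blue mean falls to 44.2% in the first kb and reaches 94.6% 8 to 9 kb downstream.

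Promoter sequence was compared next, because Polycomb domains in mammals form typically over stretches rich in CG dinucleotides. RefSeq promoters, which run from 250 bases before to 50 after the start on GRCh38.p14, were at hand for 8 of the 10 genes and not for LHX1 and LHX5. Where several starts were listed the most upstream was taken, and their coordinates belong to another build than the regions. LHX8 and its paralogue LHX6 are printed because LHX8 is the locus without the mark. LMX1A and LMX1B are printed because they are a pair with strong and moderate coverage at the start, and LHX9 because CHD5 and H3K27me3 meet near its start. Capitals mark each CG dinucleotide, a count that is the same on both strands.

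LHX8, chr1:75128184-75128483, plus strand: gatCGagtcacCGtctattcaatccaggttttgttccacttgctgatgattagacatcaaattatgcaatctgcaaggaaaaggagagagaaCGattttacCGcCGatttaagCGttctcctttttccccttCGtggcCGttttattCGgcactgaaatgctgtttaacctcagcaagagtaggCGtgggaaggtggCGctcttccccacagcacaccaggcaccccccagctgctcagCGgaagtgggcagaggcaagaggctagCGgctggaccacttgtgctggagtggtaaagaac

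LHX6, chr9:122228384-122228683, minus strand: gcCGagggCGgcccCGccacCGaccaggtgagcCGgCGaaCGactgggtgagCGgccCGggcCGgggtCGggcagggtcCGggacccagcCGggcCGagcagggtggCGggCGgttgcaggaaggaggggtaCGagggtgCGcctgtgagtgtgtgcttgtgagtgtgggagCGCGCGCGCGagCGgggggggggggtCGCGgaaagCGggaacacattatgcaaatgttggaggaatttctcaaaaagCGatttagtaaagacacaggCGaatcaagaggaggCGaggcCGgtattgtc

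LHX9, chr1:197912214-197912513, plus strand: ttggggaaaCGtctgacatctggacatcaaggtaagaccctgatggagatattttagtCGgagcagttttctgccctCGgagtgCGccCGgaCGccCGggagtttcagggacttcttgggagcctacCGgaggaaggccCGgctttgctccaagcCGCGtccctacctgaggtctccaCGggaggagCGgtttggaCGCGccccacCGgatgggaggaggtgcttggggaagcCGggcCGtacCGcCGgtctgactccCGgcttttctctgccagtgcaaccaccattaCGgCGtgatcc

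LMX1A, chr1:165356666-165356965, minus strand: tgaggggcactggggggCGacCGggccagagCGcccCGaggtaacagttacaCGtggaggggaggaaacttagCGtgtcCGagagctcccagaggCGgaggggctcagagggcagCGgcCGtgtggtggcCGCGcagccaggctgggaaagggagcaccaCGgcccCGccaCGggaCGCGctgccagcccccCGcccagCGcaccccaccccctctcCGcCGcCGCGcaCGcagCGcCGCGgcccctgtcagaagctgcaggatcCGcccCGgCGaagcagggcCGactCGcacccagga

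LMX1B, chr9:126613678-126613977, plus strand: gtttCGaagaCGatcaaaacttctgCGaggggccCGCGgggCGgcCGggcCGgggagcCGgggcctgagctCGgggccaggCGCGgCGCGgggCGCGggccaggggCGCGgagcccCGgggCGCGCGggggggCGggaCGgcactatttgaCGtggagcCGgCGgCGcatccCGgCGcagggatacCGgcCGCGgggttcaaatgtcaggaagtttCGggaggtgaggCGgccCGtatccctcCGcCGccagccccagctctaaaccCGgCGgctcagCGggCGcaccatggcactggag

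The LHX8 promoter held 13 CG dinucleotides, the fewest of the 8, and was the only one of them below the median of 14 over 35116 promoters in the table. The others held 23 at LHX9, 30 at LHX2, 31 at LHX6, 32 at LHX3, LHX4 and LMX1A, and 42 at LMX1B. Of all promoters 51.7% held at least as many as LHX8, 20.7% as many as LHX6 and 5.85% as many as LMX1B. Among the 7 marked genes the CG count did not order the coverage at the start. LMX1B, with the most CG, had 32.0% of the surrounding 4 kb covered, and LHX9, with the fewest, had 82.6%. Starts listed farther downstream held 4 CG dinucleotides at LHX8, 16 and 7 at LHX6, 40 and 37 at LHX3, 21 at LHX9 and 25 at LMX1A, so a start of the marked gene LHX6 also lay below the median.

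**Figure D4:**
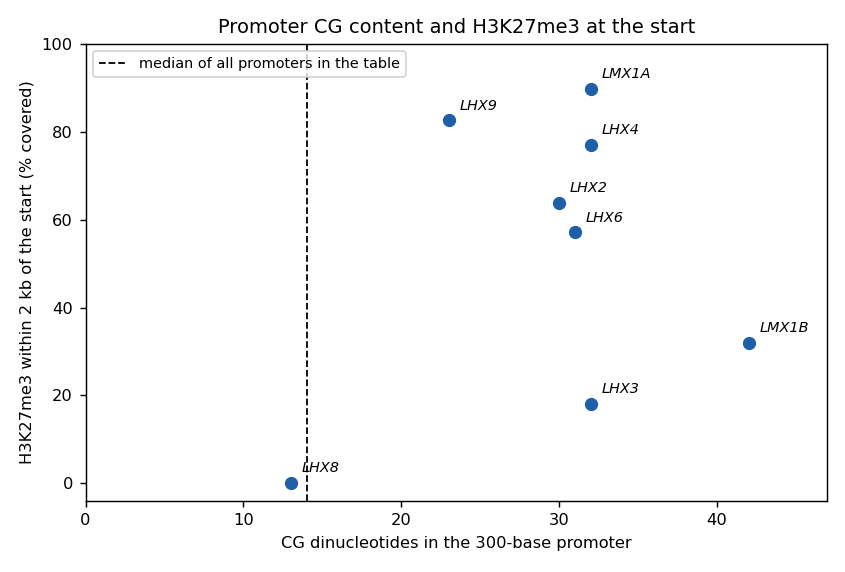
H3K27me3 coverage within 2 kb of the gene start, in percent, against the number of CG dinucleotides in the 300-base RefSeq promoter, for the 8 genes matched. The dashed line is the median of all promoters in the table, 14; each gene is shown by its most upstream start, and on that choice LHX8 alone lies left of the line, at 13 and 0%.

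The 5 paralogue pairs of the family were then set side by side. The mark was listed at both genes in 4 pairs, and CHD5 at both genes in 2, at 1 gene in 3 and at neither in 0.

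LHX1 and LHX5 act in head formation and in forebrain, kidney and Purkinje cell development. LHX1 (chromosome 17 from 35294000 to 35302000) had 1 CHD5 peak and 29 H3K27me3 regions, which covered 16.073 kb. LHX5 (chromosome 12 from 113899000 to 113910000) had 0 CHD5 peaks and 50 regions, which covered 16.906 kb. The covered lengths were thus close, but the mark at LHX1 was the more compact. It formed 1 domain of 18.691 kb from 35286118 to 35304808, 86.0% of which lay in called regions, with a highest score of 1123. At LHX5 the widest domain spanned 30.07 kb from 113894499 to 113924568 and was 53.6% filled, with a highest score of 896. The CHD5 peak at LHX1, from 35305147 to 35306875, began 0.339 kb beyond the edge of the domain, and the next region on its other side lay 792 kb away. Its score of 62.1 was the lowest of the 15 peaks. The peak lay 3.147 kb beyond the LHX1 span, on the side of the neighbouring gene AATF. The start of AATF was not placed here, so the peak cannot be assigned to LHX1 rather than AATF. Around LHX5 no CHD5 peak was listed within 100 kb, and the nearest lay 126 kb from the span.

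LHX2 is needed for eye and forebrain development, and LHX9, in mice, for the gonad. LHX2 (chromosome 9 from 126773000 to 126796000) had the highest covered share of the 10, 50.3%, from 51 regions over 31.687 kb. Its main domain of 34.613 kb ran from 126753444 to 126788056, over the start. The widest and highest scoring region, 3992 bp with a score of 3014, lay upstream of the start, from 126765373 to 126769364. The only CHD5 peak at LHX2, from 126808986 to 126809994, scored 71.5 and lay 13.0 kb beyond the span and 7.58 kb from the nearest H3K27me3 region. The profiles at LHX2 thus stood apart.

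LHX9 (chromosome 1 from 197881000 to 197900000) was the place where they met most fully. Its H3K27me3 comprised 16 regions over 15.239 kb, with a domain of 14.013 kb from 197876679 to 197890691 across the start. The widest region, 4745 bp from 197881973 to 197886717, had a score of 3100. A CHD5 peak of 3990 bp, from 197884248 to 197888237, began in that region and ended in another with a score of 754. It touched 5 regions and shared 3752 bp with them, or 94.0% of its length. In the whole list 2.19% of CHD5 peaks overlapped H3K27me3, and of those 712 peaks 7.16% had as large a share of their length inside. The LHX9 peak was the widest of the 15 and wider than 94.1% of all CHD5 peaks, while its score of 110 exceeded 46.7% of them.

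LHX3 and LHX4 direct pituitary and motor neuron development. LHX3 (chromosome 9 from 139088000 to 139097000) had 0 CHD5 peaks, the nearest being 85.1 kb from its span, and 40 regions over 17.324 kb. Its domain of 37.262 kb, from 139058785 to 139096046, extended beyond the end of the gene and stopped 0.954 kb short of the span's start. Further starts of LHX3 are listed downstream. On the minus strand of GRCh38.p14 the listed promoters have lower bounds at 136205079, 136203140 and 136201625. By that spacing the further starts would lie inside this domain, though the span's start is known only to the nearest kb. The highest score there, 746, was the lowest such value among the 9 marked loci. LHX4 (chromosome 1 from 180199000 to 180248000) had 2 CHD5 peaks and 18 regions over 14.754 kb. Its domain was narrower, 17.018 kb from 180194470 to 180211487, but was 86.7% filled, lay across the start and held a region with a score of 3100. The CHD5 peaks lay at the other end of the gene and beyond it, from 180246567 to 180248501 with a score of 106 and from 180256484 to 180258218 with a score of 134. They were 35.1 and 45 kb from the nearest H3K27me3 region, so LHX4 carried the mark at its start and CHD5 at its far end.

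LHX6 and LHX8 act in the ventral forebrain, where LHX6 marks cortical interneurons and LHX8 serves cholinergic neurons. They were the pair with the least alike profiles. LHX6 (chromosome 9 from 124964000 to 124992000) had 22 regions over 9.594 kb, the smallest covered length of the marked loci, in 1 domain of 19.463 kb from 124974685 to 124994147. Its CHD5 peak, from 124976438 to 124977423, scored 81.9 and lay inside the gene near the domain's downstream edge. That peak touched 2 short regions with scores of 70.9 and 54.8 and shared 337 bp with them, or 34.2% of its length. Of the overlapping peaks in the whole list 45.5% had a share at least as large.

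LHX8 (chromosome 1 from 75594000 to 75628000) had 4 CHD5 peaks over 6.27 kb and 0 H3K27me3 regions. Inside the gene the peaks ran from 75598169 to 75599393, from 75605035 to 75606996 and from 75609593 to 75611083, with scores of 111, 167 and 97.7. A further peak, beyond the span, ran from 75632579 to 75634170 with a score of 95.8. The score of 167 was the highest at any of the 10 genes. Counted cumulatively from the span, LHX8 had 12 CHD5 peaks within 50 kb and 14 within 100 kb, so the stretch beyond 50 kb added 2. The nearest H3K27me3 region lay 86.8 kb from the span, and all 4 peaks stood in a stretch of 338 kb without a called region. At least 4 CHD5 peaks were found in 3.98% of genome windows, and at least 4 without any H3K27me3 region in 3.49%. A region that is not listed is one that the caller did not pass, and a weaker mark at LHX8 cannot be seen in these lists.

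LMX1A and LMX1B are needed for midbrain dopaminergic neurons, and LMX1B also for serotonergic neurons and for limb and kidney. LMX1A (chromosome 1 from 165171000 to 165326000), the longest of the spans at 155 kb, had 136 regions over 62.379 kb and 0 CHD5 peaks. The nearest CHD5 peak was 240 kb from the span, the farthest of the 10. The mark was broken into 11 domains, 8 of them at least 5 kb wide. That over the start ran from 165310954 to 165336388, was 25.435 kb wide and 81.7% filled, and held a region of 4439 bp with a score of 3100 from 165317447 to 165321885. The widest, 31.469 kb from 165183541 to 165215009, lay towards the other end of the gene and was 42.6% filled. The mark at LMX1A thus ran along the length of the gene, and the fullest of its 8 wider domains lay over the start.

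LMX1B (chromosome 9 from 129376000 to 129464000) had 80 regions over 36.698 kb and 5 CHD5 peaks over 6.037 kb. Counted by midpoint it had 4 peaks, as did LHX8, whose locus is shorter. Its main domain, 46.342 kb from 129368703 to 129415044, was the widest at any of the 10 genes and ranked 497th of 38537 domains in the list. The highest score in it was 2069. A CHD5 peak with a score of 98.8, from 129400607 to 129402009, lay inside this domain and shared 1066 bp, or 76.0% of its length, with 3 regions. Of the overlapping peaks in the whole list 16.9% had a share at least as large. A cluster of 3 CHD5 peaks followed in a stretch of 28.8 kb without H3K27me3, between the main domain and a smaller domain of 8.295 kb from 129443861 to 129452155. The 3 peaks ran from 129432310 to 129433265, from 129433564 to 129435351 and from 129435435 to 129436852, with scores of 80.0, 132 and 120. The last peak, from 129483529 to 129484866 with a score of 123, lay beyond the gene. At LMX1B, then, CHD5 was found inside the mark, between marked stretches and outside them, whereas at LMX1A it was not listed. The mark covered 31.5% of the LMX1A span and 36.1% of the LMX1B span.

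Across the 15 CHD5 peaks, 3 overlapped H3K27me3, at LHX6, LHX9 and LMX1B. The share in the whole list was 2.19%, but that list lies mostly away from the mark, whereas the loci are rich in it. Of the genome windows with an H3K27me3 region 21.3% also held CHD5, and of those with a domain of at least 5 kb 13.9% did. At the LIM homeobox genes this was 6 of 9 on either count. Counted over the spans alone it was 4 loci, LHX4, LHX6, LHX9 and LMX1B. These shares were not tested against each other, and the loci differ in width from the genome windows. Wider than the windows were LHX4 at 89.001 kb, LHX6 at 68.001 kb and LMX1B at 128.001 kb, all with CHD5. LMX1A, without CHD5, was also wider, at 195.001 kb, and the other marked loci were narrower. The share of windows with CHD5 also varied between chromosomes, at 33.9% of the windows with a region on chromosome 1, 20.8% on chromosome 9, 20.7% on chromosome 12 and 45.1% on chromosome 17.

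The CHD5 peaks were of low to middling score in their list, exceeding from 13.5% of all CHD5 peaks at LHX1 to 65.7% at LHX8. Their median score was 106 and their median width 1491 bp, against 117 and 1647 bp in the whole list, and 10 of the 15 scored below the list's median. The 3 overlapping peaks all scored below it. With CHD5 peaks under the median left out, 5 peaks remained, at LHX4, LHX8 and LMX1B, and 0 overlapped H3K27me3. All 3 overlaps at these genes thus rest on peaks below the median of the list.

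**Figure D5:**
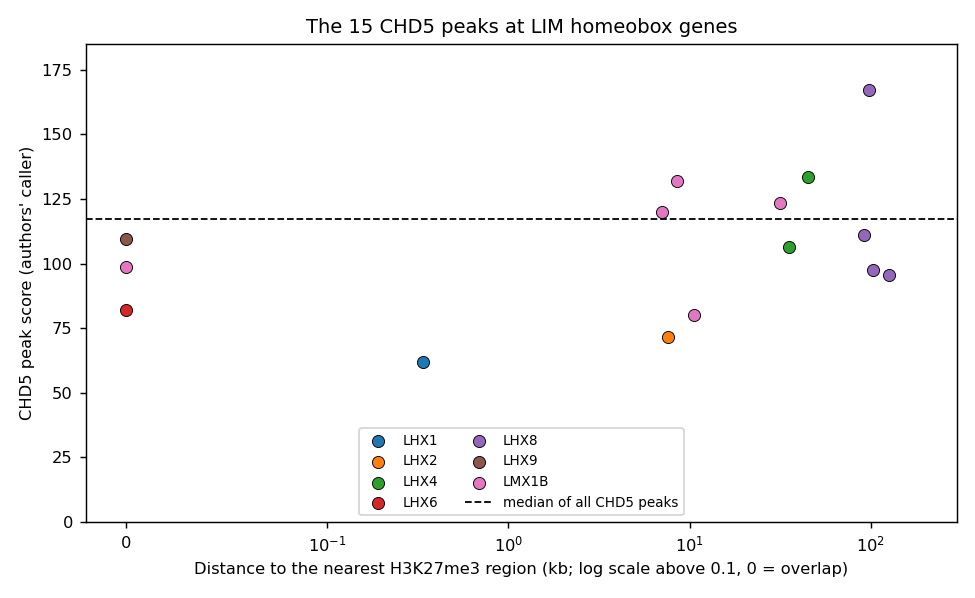
Score of each of the 15 CHD5 peaks, as given by the authors' peak caller, against its distance in kb to the nearest H3K27me3 region, on a log scale above 0.1 kb with overlapping peaks at 0. Colours are genes and the dashed line is the median score of all CHD5 peaks, 117; the 3 overlapping peaks lie below it and the highest peak, at LHX8 with a score of 167, lies 97.8 kb from the mark.

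Of the 15 peaks 10 met a gene span and 5 lay in the flanks. Spans ran from 8 to 155 kb beside flanks of 20 kb on each side. Peaks were not counted per length, so these counts do not show a preference for the genes. In the 8 genes with a known strand every peak had its midpoint downstream of the start, from 4.78 kb at LHX8 to 108 kb at LMX1B, and none lay in the 20 kb upstream. The stretch searched was unequal, with 565 kb downstream of these 8 starts and 160 kb upstream. Within 500 kb of the spans CHD5 peaks numbered between 5 at LHX6 and 31 at LHX8. Among the genes without a peak of their own, LMX1A had 12 peaks at this distance, LHX3 had 19 and LHX5 had 7. The mean genome window of 65501 bp held 0.71 CHD5 peaks, so a stretch with 500 kb on each side would commonly hold some. No genome windows of that width were counted, and these numbers only describe the neighbourhood.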

How the data were processed

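Chromatin immunoprecipitation libraries from SH-SY5Y cells were used as region lists for CHD5 and H3K27me3. The file headers call both MACS peaks and name a single library for each. The submitters' processing notes give hg19 as the build. For the aligner, the version and threshold of MACS and its background library, nothing was given in the sources used here. A narrow peak caller splits a broad mark into short regions, which is why domains were also built. Each region carries a score deposited by the authors, of unstated scale, and positions in bp (counted from 1 here).

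Gene spans were those of the selection rule, and a region counted when it overlapped the span and 20 kb on each side by at least 1 bp. Regions were joined across up to 3 kb. Genome windows of 65501 bp were tiled from the first base of each chromosome to the highest region end. No annotation of hg19 was used. Strands and promoters came from RefSeq (GRCh38.p14), which matched 8 of 10 genes. Members, lists and rules were chosen with earlier results of these data known. Peaks named by position were the highest scoring CHD5 peak and every CHD5 peak that overlapped H3K27me3 at a locus, its widest domain and its highest scoring region; other CHD5 peaks and domains were named after their values were seen. The alignment at gene starts, the CG counts and the windows with many peaks were also chosen after the data were examined. The routines were tested on simulated data and against bedtools 2.31.1. Alternatives covered the window, score limits, the counting rule, joining, overlap, distance to the start and the genome windows. Python 3.11.15, numpy 2.4.6, pandas 2.3.3 and matplotlib 3.10.9 were used.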

Additional observations from a re-analysis of the deposited data

How the results depend on the processing

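Of 87 alternative values, 76 stayed within 1.5 times the main one. Some of these could not move, such as H3K27me3 counts under a limit on the CHD5 score. The tally is therefore not a measure of how stable the results are. H3K27me3 was listed at 9 loci under each window, score limit and counting rule tried. Counting gene spans alone gave 286 H3K27me3 regions over 140.138 kb. With 50 kb on each side there were 25 CHD5 peaks over 41.993 kb. With CHD5 scores at or above the list median, CHD5 was at 3 loci, with H3K27me3 at 2 of them, in 5 peaks over 7.375 kb, of which 0 overlapped the mark. CHD5 lay near a start at 3 loci when near meant 5 kb, with either end of the span taken at LHX1, whose strand was not given. Its peak lay 3.147 kb from the end with the higher coordinate and 11.147 kb from the other. LHX1 therefore counts only if the former is its start. Genome windows of 100 kb held both profiles in 11.6% of cases. The changes with window or distance go with counting over shorter or longer stretches. Those under the score limit go with leaving out the lower-scoring CHD5 peaks. The overlaps and most of the loci with both profiles thus depend on those peaks. Other values, such as overlaps counted by domain or by the larger part of a peak, moved less, from 2 to 4 peaks. No leave-one-out run was possible with 1 library per group. No paired analysis was possible because each group has 1 library. Lists without counts limit what a missing region can show, and the number of regions depends on an unknown depth.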
